A study of Homo sapiens with 12 samples.

Results

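The genes of the cytosolic ribosomal proteins, 77 of the 26485 genes counted, were followed in spheroids of DU145, a human prostate carcinoma line long kept in culture. They were taken by symbol: RPL or RPS with a number and at most a closing A or X, together with RPLP0, RPLP1, RPLP2 and RPSA, without pseudogenes and without the mitochondrial ribosomal proteins. Of the 77, 46 belong to the large 60S subunit and 31 to the small 40S subunit. All 77 passed the filter on low counts that left 14732 genes for testing. The study used 3 lines with 4 biological replicates each. DU145KO came from CRISPR-Cas9 editing of ITGA2, with cells that still showed α2 integrin removed by sorting, and was not transfected further. DU145KO+α2 was DU145KO stably transfected with α2 integrin cDNA, and DU145KO+vector was DU145KO with the empty vector, pAWneo2, both kept under geneticin selection. All 12 samples thus carry the edit, and only DU145KO+α2 has the integrin back. Spheroids of 8000 cells were grown for 72 hours in serum-free medium. Whether each line grew from a single cell is not given in the sources used here, so an effect of the integrin and a difference between lines that arose during transfection and selection cannot be told apart within 1 pair of lines. In RNA from whole spheroids, fewer cells of a kind and less RNA per cell cannot be told apart either.

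Ribosomal proteins coat the ribosomal RNA of the subunits and are needed in about equal numbers, since each ribosome holds 1 copy of most of them. Their mRNAs are among the most abundant of a growing cell and share a start of cytosine and pyrimidines, the terminal oligopyrimidine or TOP motif, through which mTOR signalling and the protein LARP1 set how much of the mRNA is translated. In tumour cells ribosome production follows growth signals such as MYC and mTOR.

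The target of the edit, ITGA2, had a CPM (the count scaled to the normalized library size) of 301, 328, 332 and 259 in DU145KO+α2, taken in the order of the replicates, and of 13.0 to 25.8 in the other 8 samples. The log2 fold change was 4.11 (SE 0.16) against DU145KO+vector and 3.88 (SE 0.16) against DU145KO, with adjusted p of 3.15e-09 and 5.76e-09 by edgeR's quasi-likelihood test. The total count per sample was 13948734 to 19988111. Of 4 epithelial markers all were expressed (46.8 to 624 CPM over the samples). KLK3, a marker of luminal prostate cells, had 0 counts in every sample. Among 3 markers each of fibroblasts, leukocytes and endothelium, COL1A2, PTPRC, CD3E and VWF had at most 4 counts. The others were counted in every sample, CD14 with 21 to 43 counts and PECAM1 with 8 to 22. COL1A1 was highest at 7.64 to 12.1 CPM (111 to 209 counts). The marker lists differed between the lines. KRT18, EPCAM and CDH1 were lower in DU145KO+α2 than in DU145KO (log2 fold changes −0.42, −1.14 and −1.13), CDH1 was also lower than in DU145KO+vector (−0.70), and EPCAM was lower in DU145KO+vector than in DU145KO (−0.83). PDGFRB, at 2 to 12 counts, was lower in DU145KO+α2 than in both other lines, and KDR, at 10 to 50 counts, was higher than in DU145KO+vector (1.14). The part of these differences in the values of the ribosomal protein genes was not tested.

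RefSeq promoter windows of GRCh38.p14 were matched by symbol for 62 of the 77 genes. At an annotated first base, 46 of the 62 (74.2%) had C followed by at least 4 pyrimidines, compared with 5.14% of the 27305 genes of the table and 6.74% of the 10643 tested genes outside the group. The starts of the genes on which the results below turn are printed to show this shared feature. Each window runs 5′ to 3′ from 10 bases before the annotated first base to 20 bases from it on, in GRCh38.p14, and capitals mark the run of C and T over the first base.
RPL12 (chr9:127451387-127451416, minus strand): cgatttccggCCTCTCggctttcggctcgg
RPL35 (chr9:124861938-124861967, minus strand): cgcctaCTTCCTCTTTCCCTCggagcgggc
RPL7A (chr9:133348208-133348237, plus strand): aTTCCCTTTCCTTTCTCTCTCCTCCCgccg
RPS16 (chr19:39435930-39435959, minus strand): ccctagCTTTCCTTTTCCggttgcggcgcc
RPS21 (chr20:62387093-62387122, plus strand): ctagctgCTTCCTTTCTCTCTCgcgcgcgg
RPLP0 (chr12:120201092-120201121, minus strand): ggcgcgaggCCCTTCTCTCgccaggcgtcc
RPLP1 (chr15:69452808-69452837, plus strand): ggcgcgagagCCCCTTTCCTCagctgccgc
RPLP2 (chr11:809957-809986, plus strand): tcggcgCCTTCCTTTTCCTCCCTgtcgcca
RPS6 (chr9:19380217-19380246, minus strand): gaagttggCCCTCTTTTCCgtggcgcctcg
RPS27 (chr1:153990752-153990781, plus strand): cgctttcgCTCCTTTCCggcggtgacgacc
RPL41 (chr12:56116623-56116652, plus strand): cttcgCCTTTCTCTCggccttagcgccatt
RPL4 (chr15:66504836-66504865, minus strand): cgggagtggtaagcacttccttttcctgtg
RPS26 (chr12:56041908-56041937, plus strand): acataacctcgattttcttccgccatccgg
The longest run of these was that of RPL7A, with 25 pyrimidines, of which 16 lie from the first base on. Among the TOP starts shown, RPL12 had the shortest run, with 6, all from the first base on. From the first base on alone, RPL41 was shortest, with 5. RPL4 and RPS26 had no pyrimidine at their first base, so no capitals. RPL10, RPS27A, RPL11 and 7 other genes had more than 1 annotated start, and a gene was counted if any start held the motif. In the 300-base windows the letters CGGAAG (on either strand) were found for 40 of the 62 genes (64.5%) and 22.6% of all genes, GGGCGG for 58.1% and 48.3%, and TATAAA for 8.06% and 14%. These are matches of letters and not sites of binding. The 46 genes with a TOP start by this rule and the 16 without one are set side by side by their median log2 fold changes. The rule depends on the annotated first base, so the 16 are not shown to lack the motif in their mRNAs. RPL19 and RPS7, with runs of 12 and 11 pyrimidines over that base, are among the 16. For DU145KO+α2 these were 0.06 and 0.09 against the vector line and 0.15 and 0.18 against DU145KO. For the vector line against DU145KO they were 0.09 and 0.07.

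Levels between genes were compared per length, as the deposited RPKM values. The mean RPKM over the 12 samples ranged from 2.89 to 6235, with a median of 742.5, compared with 8.11 over all genes tested, and 54 of the 100 genes with the highest mean RPKM were ribosomal protein genes. RPS27, a zinc-binding protein of the 40S subunit, was first among all genes. Its RPKM was 6870.0 ± 1031 with α2, 6366 ± 951 with the vector and 5468 ± 793 without either (SD, n = 4 each). RPL41, which encodes a very small peptide, followed with a mean RPKM of 2602. RPL26, of the rim of the exit tunnel for the growing peptide, was at 1910 RPKM, and RPL7A, of the body of the 60S subunit, at 1827 RPKM. RPL4, which lines the tunnel, was at 1753 RPKM, and RPS25, a 40S protein used at viral internal entry sites, at 1640 RPKM. From RPL26 to RPS25, neighbours in this order differed by less than the spread between replicates of a line, which was 182 RPKM for RPL26 and 169.9 RPKM for RPL7A in DU145KO.

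The lowest of the group were RPL36A (2.89 RPKM, 86 to 193 counts), RPL17 (27.7 RPKM), RPL28 (47.4 RPKM) and RPS9 (53.7 RPKM). These low values come with features of the annotation. RPL36A and RPL17 share 8.40% and 24.9% of their exon bases with the read-through genes RPL36A-HNRNPH2 and RPL17-C18orf32 on the same strand, both of which had 0 counts in every sample. RPL28, RPS9 and RPL36A were divided by lengths of 5183, 7144 and 2911 bases, while the median length of the 77 genes was 880 bases. RPL36A also shares 14.05% of its exon bases with GLA on the opposite strand. The part of these features in the low values was not tested. In CPM, which does not divide by length, RPS9 stood at 309 to 476. Only uniquely aligned reads were counted by the authors. The 31 rows of ribosomal protein pseudogenes held 1084 to 1867 counts in sum per sample, against 735298 to 1118340 counts for the 77 genes. How many reads each gene lost to near-identical copies was not tested, so the order of the levels between genes is that of the uniquely aligned reads.

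Summed, the 77 genes took 4.73% to 6.30% of all counts of a sample. In DU145KO the share was 5.64%, 5.05%, 5.47% and 4.73% in replicates 1 to 4 (5.22 ± 0.413%, SD, n = 4). In DU145KO+α2 it was 6.30%, 5.60%, 5.52% and 5.90% (5.83 ± 0.355%), and in DU145KO+vector 6.05%, 5.47%, 5.68% and 5.15% (5.59 ± 0.379%). The 3 lines overlap, and the highest share of each line was that of replicate 1. Between samples with the same replicate number, the summed CPM of DU145KO+α2 differed from that of DU145KO by 0.17, 0.15, 0.01 and 0.34 on the log2 scale, and from that of DU145KO+vector by 0.07, 0.03, −0.02 and 0.21. For DU145KO+vector compared to DU145KO the differences were 0.10, 0.13, 0.03 and 0.13. All 4 pairs were thus higher in DU145KO+α2 than in DU145KO and in the vector line than in DU145KO, and 3 of 4 pairs were higher with α2 than with the vector. The 60S genes took 1.57 to 1.65 times as many counts as the 40S genes in every sample.

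**Figure D1:**
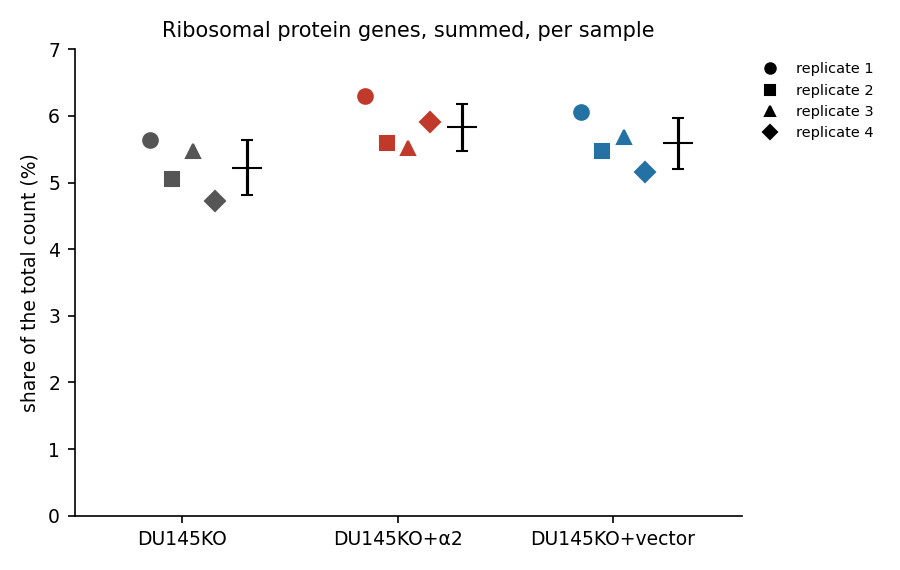
Share of the total count (%) taken by the 77 ribosomal protein genes in each sample, by line, with a symbol for each replicate number and the mean ± SD (n = 4) beside each line. The samples lie between 4.73% and 6.30%, replicate 1 is highest in every line, and the lines overlap.

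The 77 genes moved up and down together among the replicates. For each gene and sample the deviation from the mean of its line (log2 CPM) was taken and averaged over the genes. The average deviation in the replicate 1 samples was 0.15 (DU145KO), 0.14 (with α2) and 0.15 (with the vector), and in them 77, 73 and 72 of the 77 genes lay above their line mean. In replicate 4 it was −0.17, 0.00 and −0.14, with 2, 34 and 2 genes above. Replicate 4 was thus the lowest sample of both α2 negative lines but not of DU145KO+α2, in which replicate 3 (−0.09, 4 genes above) was. Pearson's r between a gene's 12 deviations and the mean of the other members had a median of 0.87, a range of 0.22 to 0.99, and was above 0.5 for 70 genes (90.9%). Over the 14655 other genes tested, r with the mean of the 77 genes was above 0.5 for 16.9%. These are descriptions over 12 samples, 3 to a replicate number, whose total counts differ, and 35 other genes had r above 0.9, as did 32 of the 77.

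RPL31, next to the tunnel exit (r = 0.99), RPS18 of the 40S head (r = 0.99) and RPS21 of the 40S body (r = 0.98) followed the group most closely. Leaving out the 2 samples farthest from the median left r at 0.99, 0.98 and 0.98. RPL18 of the 60S subunit (r = 0.22), RPS15 of the 40S head (r = 0.25) and RPS26 of the mRNA exit channel (r = 0.27) followed it least. Without the 2 farthest samples their r was −0.11, −0.0048 and 0.49, so that RPS26 was no longer among the 3 lowest. In RPS21 the values of replicates 1 to 4 were 369, 303, 284 and 320.0 CPM with α2, 371, 312, 311 and 269 CPM with the vector and 299, 243, 253 and 217 CPM in DU145KO. Replicate 1 was the highest of each line. RPL18 instead had its highest value in replicate 2 of DU145KO+α2 and of DU145KO+vector, at 306.6 and 275 CPM.

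**Figure D2:**
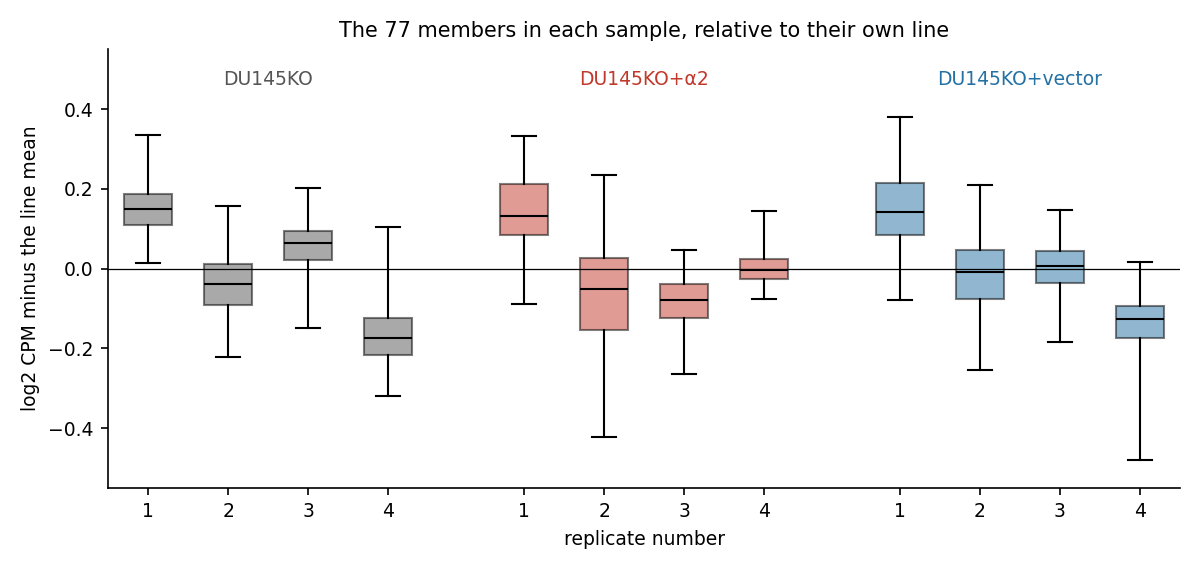
Deviation of the 77 ribosomal protein genes from the mean of their own line (log2 CPM) in each of the 12 samples, with boxes for the quartiles, a line for the median and whiskers to the lowest and highest gene. In replicate 1 of DU145KO all 77 genes lie above 0, and in replicate 4 of DU145KO and of DU145KO+vector only 2 do.

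The comparison of DU145KO+α2 with DU145KO+vector asks what the return of α2 integrin goes with, against a line that went through the same selection. In DU145KO+α2 compared to DU145KO+vector, RPS16 rose and RPL12 and RPL35 fell, and the other 74 genes did not pass edgeR's quasi-likelihood test at an adjusted p of 0.05. That is 1 higher and 2 lower of 77, where 5.96% of all genes tested were called higher and 5.95% lower. The median log2 fold change of the 77 genes was 0.06, that of all genes −0.01, and 59 of the 77 lay above 0. Both values moved with single samples. Without replicate 1 of DU145KO+α2, 38 lay above 0 and the median was −0.0048. Without replicate 4 of DU145KO+vector they were 44 and 0.02, without replicate 3 of DU145KO+α2 72 and 0.10, and without replicate 1 of DU145KO+vector 73 and 0.13. No member differed by more than 2-fold in any comparison.

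RPL12 forms the base of the stalk that recruits elongation factors. Its values were 808, 746, 726 and 776 CPM for the 4 replicates of DU145KO+α2. With the vector it was at 1086, 1054, 1107 and 937 CPM, and without either construct at 944, 772, 978 and 828 CPM. All samples of DU145KO+α2 lie below all of DU145KO+vector (log2 fold change −0.45, SE 0.09, adjusted p = 0.00337), and they overlap with DU145KO. RPL35, a tunnel exit protein at the docking site of nascent chain factors, was at 525, 438, 475 and 517 CPM with α2, 680.2, 587, 645 and 550.4 CPM with the vector and 478, 455, 504 and 460.3 CPM without either. DU145KO+vector stands above both other lines, and the other two overlap (log2 fold change −0.33, SE 0.08, adjusted p = 0.0166 for DU145KO+α2 compared to DU145KO+vector). This call of RPL35 was lost without replicate 3 of DU145KO+α2 (adjusted p = 0.0572), replicate 1 of DU145KO+vector (adjusted p = 0.0653) or replicate 3 of DU145KO+vector (adjusted p = 0.0543). RPS16, whose tail reaches the P site of the 40S subunit, was at 1041, 1089.7, 945 and 979 CPM with α2, 826, 822, 667 and 729.8 CPM with the vector and 948, 807, 782 and 702 CPM without either. DU145KO+α2 lies above all samples of DU145KO+vector (log2 fold change 0.41, SE 0.10, adjusted p = 0.0124), and its lowest sample lies just below the highest of DU145KO. Without replicate 3 of DU145KO+vector, its lowest sample, the adjusted p was 0.0506.

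**Figure D3:**
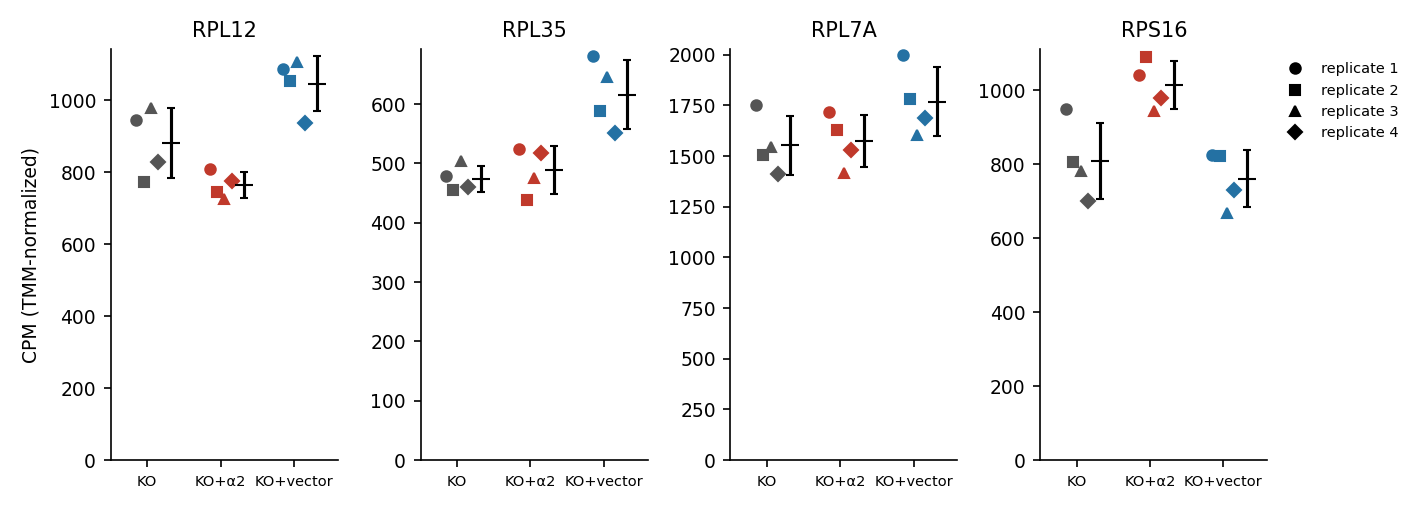
TMM-normalized CPM of RPL12, RPL35, RPL7A and RPS16 in the 4 replicates of each line (KO is DU145KO), with a symbol for each replicate number and the mean ± SD (n = 4). RPL12 is lowest in DU145KO+α2 (726 to 808 CPM), RPL35 highest in DU145KO+vector (550 to 680 CPM, rounded), and RPS16 highest in DU145KO+α2 (945 to 1090 CPM, rounded).

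Samples with the same replicate number deviated together, so the fit with the number as a block stands beside these results. With the block, 5 members were called higher and 3 lower, where 12.9% and 13.7% of all genes were. RPS9 (log2 fold change 0.25, adjusted p = 0.00363) of the 40S subunit, RPLP0 (log2 fold change 0.24, adjusted p = 0.00812) and RPL9 were among those added to the higher ones, and RPL7A (log2 fold change −0.17, adjusted p = 0.0365) was added to the lower ones. The count changed with a correction for gene length. The 535 other expressed genes under 1 kb had median differences of −0.09, −0.08, −0.13 and 0.00 in pairs 1 to 4, and 47 of the 77 members are under 1 kb. After a smooth correction of each sample for gene length together with the block, 31 members were higher and 2 lower, against 14.1% and 12.9% of all genes, with a median of 0.11. RPS16 was then at 0.50 (adjusted p = 1.92e-06), RPL12 at −0.37 and RPL35 at −0.23 on the log2 scale. The groups did not overlap for 5 members, with RPL12 and RPL35 lower and RPS16 higher among them, and for 17.2% of all genes.

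**Figure D4:**
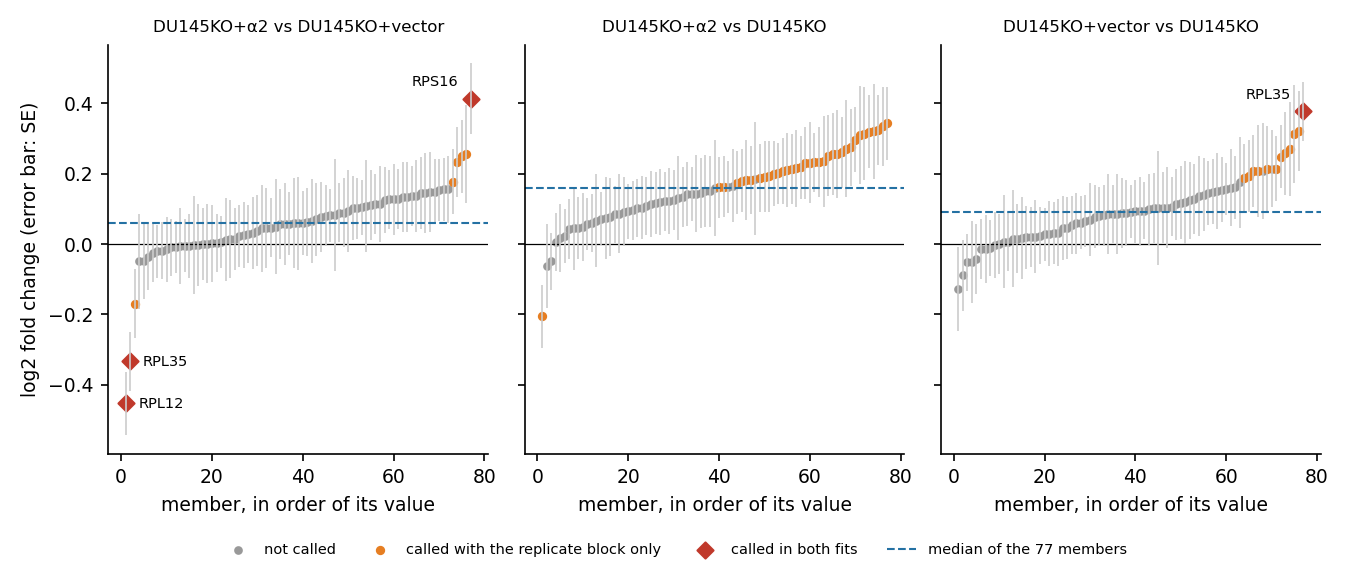
Log2 fold change of the 77 ribosomal protein genes in each comparison, in order of value, with the SE as error bar. Grey points were not called (adjusted p of 0.05 or more), orange points were called with the replicate block only, red diamonds in both fits (RPS16, RPL12 and RPL35), and the dashed line is the median of the members (0.06, 0.16 and 0.09 from left to right).

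RPL12 and RPL35 lie on chromosome 9, as do RPL7A and RPS6. RPL35 spans 124857880 to 124861981, RPL12 127447674 to 127451406 and RPL7A 133348218 to 133351426 in GRCh38. Other tested genes within 5 Mb of RPL12 (107 genes) had a median log2 fold change of −0.30 in DU145KO+α2 compared to DU145KO+vector. Of these, 53.3% were called lower. Around RPL35 (104 genes) the median was −0.29 with 53.8% called lower (the windows share genes), and around RPL7A (146 genes) −0.30 with 45.2%. These 3 were the only members whose neighbours had a median beyond 0.2 in either direction in this comparison. RPL7A itself was at −0.17 (95% interval −0.38 to 0.04, adjusted p = 0.306), with 1716, 1627, 1417 and 1530.4 CPM with α2 and 1998, 1783, 1605 and 1689 CPM with the vector. It was lower in all 4 pairs, though the groups overlap. RPS6, at 19375715 to 19380236 of the same chromosome, was at 0.13, with a median of 0.00 over 25 neighbours. RPS16 lies on chromosome 19 (39433137 to 39435949), where 213 neighbours had a median of −0.02 and 5.63% were called higher. In DU145KO+vector compared to DU145KO the neighbours of RPL12, RPL35 and RPL7A had medians of 0.16, 0.17 and 0.18. In DU145KO+α2 compared to DU145KO they had −0.15, −0.13 and −0.14. The part of the region in the values of these members was not tested.

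**Figure D5:**
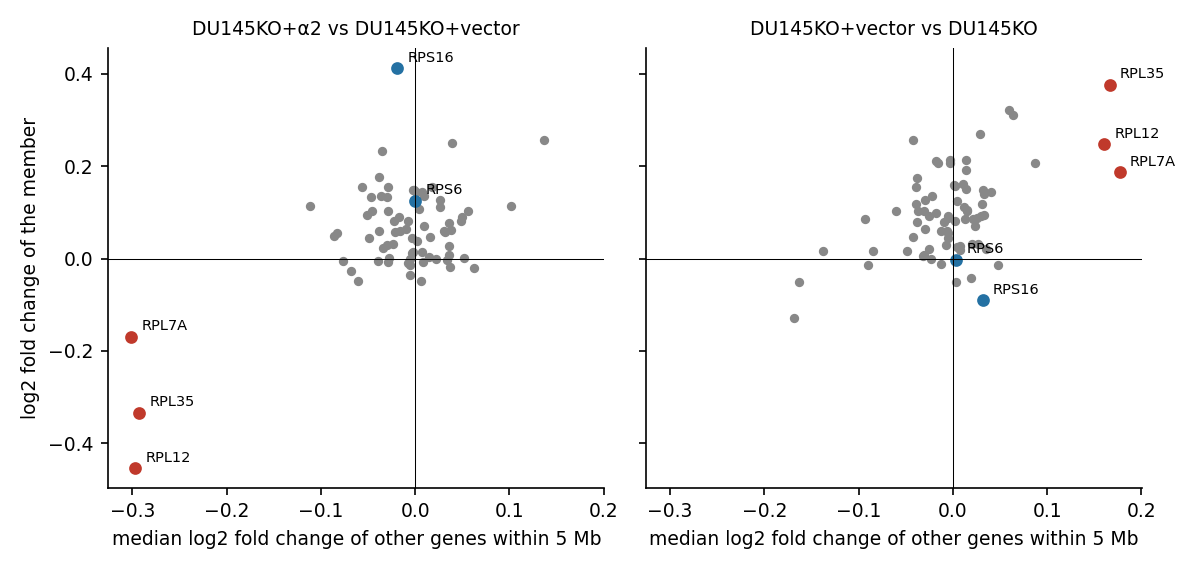
Log2 fold change of each of the 77 members against the median log2 fold change of the other tested genes within 5 Mb, for DU145KO+α2 compared to DU145KO+vector (left) and DU145KO+vector compared to DU145KO (right). RPL12, RPL35 and RPL7A (red) lie at neighbour medians of about −0.30 on the left and 0.16 to 0.18 on the right, while RPS16 and RPS6 (blue) have neighbours near 0.

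In DU145KO+α2 compared to DU145KO 74 of the 77 genes had a log2 fold change above 0, and none was called. Their median was 0.16, beside 0.00 for all genes, and 0.10 without replicate 4 of DU145KO. By edgeR's quasi-likelihood test 0 members had an adjusted p below 0.05, where 3.09% of all genes were called higher and 5.08% lower. An unadjusted p below 0.05 was found for 22 of the 77 members and for 21.4% of all genes, in either direction. The DESeq2 Wald test called 6 higher (all genes 4.12%), voom with limma 1 (3.21%), and edgeR without replicate 1 of DU145KO 5 (2.96%). With the replicate block, 35 members were higher and 1 lower, against 9.93% and 12.4% of all genes. With the block and the gene length correction, 30 were higher and 1 lower, against 10.3% and 12.2%. Of the members, 33 (42.9%) were higher in all 4 pairs of the same number, where 16.8% of all genes were. The same count was 24 (31.2%, all genes 21.1%) for DU145KO+α2 against the vector line and 38 (49.4%, all genes 17.5%) for the vector line against DU145KO, so the share was highest between the α2 negative lines. The groups did not overlap for 4 members, all higher and RPL10 and RPL37 among them, and for 12.9% of all genes. The pairs differed from each other: the median difference over the members was 0.13, 0.12, −0.01 and 0.33 in pairs 1 to 4.

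RPL37, a zinc-binding protein of the 60S subunit, had the largest difference, with 1901, 1564, 1639.9 and 1699 CPM with α2 and 1463, 1203, 1473 and 1226 CPM in DU145KO. All samples of DU145KO+α2 were above those of DU145KO (log2 fold change 0.34, SE 0.10, adjusted p = 0.0511, 95% interval 0.13 to 0.56), and with the block it passed (log2 fold change 0.35, adjusted p = 0.000202). RPS21 was next (log2 fold change 0.34, SE 0.11, adjusted p = 0.0832, 95% interval 0.10 to 0.57) and also passed with the block (log2 fold change 0.34, adjusted p = 0.000217). RPS16 was at 0.32 (adjusted p = 0.0584, with the block 0.000459). RPS9, which takes part in decoding accuracy, was at 0.32 (adjusted p = 0.0718, with the block 0.000451). RPS27 and RPL41, the most abundant members per length, were at 0.31 and 0.26, with adjusted p of 0.171 and 0.135, and 0.00192 and 0.00312 with the block. At the other end stood RPL12 (log2 fold change −0.21, SE 0.09, adjusted p = 0.193, 95% interval −0.40 to −0.02), the 1 member called lower with the block (adjusted p = 0.0284). RPS23, at the decoding centre, was next (−0.06, 95% interval −0.32 to 0.19, adjusted p = 0.833). Its 29 neighbours on chromosome 5 had a median of −0.21, and 9.21% of its exon bases overlap ATG10 on the opposite strand.

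The comparison of DU145KO+vector with DU145KO holds the 2 α2 negative lines and shows what differed without the integrin. RPL35 rose in DU145KO+vector (log2 fold change 0.38, SE 0.08, adjusted p = 0.0295), and no other member was called, where 0.496% of all genes were higher and 1.84% lower. All 4 samples of DU145KO+vector stood above those of DU145KO for RPL35 and for RPLP1, while 8.76% of all genes did not overlap. The call of RPL35 was lost without replicate 1 or 2 of DU145KO or replicate 1, 2 or 3 of DU145KO+vector (adjusted p of 0.0533 to 0.0996). The median of the 77 genes was 0.09, beside 0.00 for all genes, and 67 lay above 0. The median was 0.04 without replicate 4 of DU145KO, 0.15 without its replicate 1 and 0.05 without replicate 1 of DU145KO+vector. With the block 12 members were higher and none lower, against 5.59% and 7.85% of all genes. RPL35 and RPS21 (log2 fold change 0.32, adjusted p = 0.000923) were the largest of them with RPS29, RPL34 and RPL31. The other genes under 1 kb had median differences of 0.08 to 0.14 in the 4 pairs. After the gene length correction with the block, the median of the members was 0.00 and 4 were higher (RPL31, RPL35, RPS21 and RPS29) and RPS16 lower (−0.21, adjusted p = 0.0222), against 4.5% and 7.69% of all genes. For DU145KO+α2 against the vector line the same correction raised the median from 0.06 with the block alone to 0.11. Against DU145KO it went from 0.15 to 0.14. Each comparison shares 1 line with each of the others, so their values are not independent.

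Among the proteins of the stalk that recruits elongation factors, RPLP0 was at 2094, 1902, 1813 and 1907 CPM with α2, 1818, 1624, 1618 and 1505 CPM with the vector and 1888, 1617, 1829 and 1421 CPM without either. It was higher in all 4 pairs with DU145KO+vector and overlapped with both lines (log2 fold change 0.23, SE 0.10, adjusted p = 0.155 compared to DU145KO+vector, and adjusted p = 0.00812 with the block). RPLP1 and RPLP2, the acidic proteins it carries, were at 0.01 and −0.05 in the same comparison, with 95% intervals of −0.15 to 0.16 and −0.28 to 0.19. RPL5 and RPL11, which carry the 5S RNA and bind MDM2 when ribosome assembly fails, did not pass in any comparison or with the block. RPL5 lay between 583 and 764 CPM and RPL11 between 704 and 909 CPM over the 12 samples. RPS6, the substrate of S6 kinase, was at 1202 ± 75.3 CPM with α2, 1101 ± 100.5 CPM with the vector and 1103 ± 109 CPM without either (SD, n = 4). RPS27A, made as a fusion with ubiquitin, differed by 0.00 and 0.09 in the 2 comparisons with DU145KO+α2 (95% intervals −0.24 to 0.24 and −0.15 to 0.32). Of the 7 genes of the tunnel exit, RPL35 was the 1 called, in both comparisons with DU145KO+vector. Among all genes, 5.95% were lower with α2 than with the vector, and 0.496% higher with the vector than in DU145KO. Of the 18 members mutated in Diamond-Blackfan anaemia, an inherited failure of red cell production, RPL35 was again the 1 called, in both comparisons with DU145KO+vector. With the block 9 of the 18 were higher in DU145KO+α2 than in DU145KO, where 35 of 77 members and 9.93% of all genes were. In the vector line 6 of the 18 were higher than in DU145KO, where 12 of 77 members and 5.59% of all genes were. With the length correction added, these counts were 6 and 3 of the 18. They were 30 and 4 of the 77 members, against 10.3% and 4.5% of all genes.

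Genes that make or serve the ribosome were taken from lists. Of the 8 paralogs of ribosomal proteins, RPL3L and RPL10L had at most 2 counts in any sample, and the 6 tested (RPL7L1, RPL22L1, RPL26L1, RPL36AL, RPL39L and RPS27L) were not called in any comparison without the block. With it RPS27L, a paralog induced by p53, was higher in DU145KO+α2 than in DU145KO (log2 fold change 0.21, adjusted p = 0.0159). FAU, which encodes the ubiquitin-like fusion of a 40S protein, rose in DU145KO+α2 compared to DU145KO (268.6 compared with 218.5 CPM, log2 fold change 0.30, SE 0.09, adjusted p = 0.0466). Of 39 translation factors tested, 2 were lower in that comparison, where 5.08% of all genes were. PABPC1, the poly(A) binding protein, fell from 605 to 457 CPM on average (log2 fold change −0.40, SE 0.11, adjusted p = 0.0373), and EIF5B, which joins the subunits, had a log2 fold change of −0.36 (adjusted p = 0.0139). The median of the translation factors was 0.00 in this comparison, 0.01 against the vector line and −0.03 between the α2 negative lines.

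The shares of all genes to set beside the counts below were 5.96% higher and 5.95% lower for DU145KO+α2 against the vector line. Against DU145KO they were 3.09% and 5.08%. Of 80 ribosome biogenesis factors tested, 0 were higher and 3 lower in DU145KO+α2 compared to DU145KO+vector. The lower ones were SBDS, which frees the 60S subunit (log2 fold change −0.34, adjusted p = 0.00622), POLR1E of RNA polymerase I (−0.33, adjusted p = 0.0323) and UTP6 (−0.24, adjusted p = 0.0203). In DU145KO+α2 compared to DU145KO, 2 were lower, the nucleolar chaperone NPM1 (−0.34, adjusted p = 0.0241) and SBDS (−0.30, adjusted p = 0.0195). The medians of this list were −0.03 and −0.04, where the ribosomal protein genes had 0.06 and 0.16. Of 9 chaperones of ribosomal proteins, BCCIP was lower in DU145KO+α2 compared to DU145KO+vector (−0.26, adjusted p = 0.0291). Of 16 host genes of small nucleolar RNAs, which share the TOP start, SNHG7 was lower in the same comparison (−0.45, adjusted p = 0.0156). Of 29 regulators of ribosome production, RPS6KB1, the S6 kinase, rose from 88.6 to 115 CPM on average (log2 fold change 0.37, SE 0.09, adjusted p = 0.01). Of 76 mitochondrial ribosomal proteins, 1 was higher (MRPS6, 0.57, adjusted p = 0.00332) and 9 lower in DU145KO+α2 compared to DU145KO+vector, with MRPL41 (−0.45), MRPL50 (−0.42) and MRPL14 (−0.41) lowest. Their median was −0.08 in this comparison, 0.03 when DU145KO was the reference for DU145KO+α2, and 0.11 when it was that for the vector line, where the cytosolic ribosomal protein genes had 0.06, 0.16 and 0.09. With the block and the length correction the mitochondrial medians were −0.03, 0.01 and 0.04 and the cytosolic ones 0.11, 0.14 and 0.00. MRPL55 was the 1 called in DU145KO+α2 compared to DU145KO (0.28, adjusted p = 0.0464). Without the block none of these ribosome and translation genes was called between the α2 negative lines. The listed genes were not set against their neighbours, and the part of the chromosome 9 region in their values was not tested.

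With the replicate block more of these genes were called, as were more of all genes. In DU145KO+α2 against the vector line, where 12.9% of all genes were higher and 13.7% lower, the calls were 2 higher and 18 lower among the mitochondrial ribosomal proteins. For the biogenesis factors they were 3 and 8, for the regulators 6 and 2, and for the translation factors 2 and 1. In DU145KO+α2 against DU145KO (9.93% and 12.4% of all genes) the mitochondrial proteins had 4 higher and 5 lower, the biogenesis factors 3 and 6, the regulators 2 and 3 and the translation factors 3 and 4. Between the α2 negative lines (5.59% and 7.85%) 12 mitochondrial proteins were higher and 2 lower. The biogenesis factors had 2 and 4, the regulators 1 and 5 and the translation factors 0 and 3.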

How the data were processed

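Per the labels and the study's methods, the authors prepared TruSeq stranded mRNA libraries, sequenced single-end reads, aligned them to hg38 with TopHat2 2.1.0 and counted uniquely aligned reads per gene with Subread 1.5.0. The strand setting is not given in the sources used here. The authors deposited these counts without normalization, and RPKM values after TMM normalization. Lines and replicate numbers come from the labels. Counts were tested with edgeR 4.0.16 in R 4.3.3 (TMM, filterByExpr minimum count 10, robust quasi-likelihood test, 1 factor for the line, 12 samples), with two-sided p adjusted by Benjamini-Hochberg over the 14732 genes tested. limma 3.58.1 (voom) and DESeq2 1.42.0 were alternatives. Same-numbered samples of different lines deviated from their line means together (r across genes 0.135 to 0.554 in all 12 pairs, mean 0.378). The 36 pairs with different numbers had r of −0.29 to 0.149 (mean −0.126), so the ranges overlap at their ends. The deviations of a line sum to 0, so positive r between same numbers brings negative r between different ones. The second mean is thus not separate evidence. On the r of the same-numbered samples the numbers were taken to pair the samples. Length correction used lowess (span 0.3) with the members left out of the trend. The fits were tested on simulated counts with 200 changed genes and a dispersion of 0.01. These counts held no replicate or gene length effect, so they cannot test how the block or the length correction handles one. Positions are from GENCODE 44 (GRCh38), starts from RefSeq. The members and lists were chosen with earlier results of these data known. Named are the members highest and lowest in RPKM, called or largest in each comparison, most and least coordinated, and those of set roles, with the called genes of each list. RPL9, RPL10, RPL19, RPL34, RPS7, RPS29 and the genes printed for their starts were named after their values were seen. Some genes are not reported here by name. Intervals cover the spread between samples, and depth limits cover counting error only.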

Additional observations from a re-analysis of the deposited data

Results flagged for a closer look

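Among the named members, ITGA2 and the summed share, 90 groups of 4 samples were tested for a sample that stands apart by Dixon's ratio, and 2 exceeded its critical value at the 95% level. Chance alone gives about 1 in 20 groups. In DU145KO, 1 sample (replicate 4) had RPL18 at 201 CPM, while the other 3 had 242 to 245 CPM. In DU145KO+vector, replicate 2 had RPL18 at 275 CPM, while the others had 225 to 229 CPM. The ratios were 0.915 and 0.929. RPL18 was also the member that followed the group least (r = 0.22).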

How the results depend on the processing

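In DU145KO+α2 compared to DU145KO+vector the count of 3 became 2 with the length correction alone or without the replicate 1 samples, RPL35 being the call lost in both, 8 with the replicate block, 33 with the block and length correction, 36 with the block and GC content and length correction, and 0 by glmTreat against a fold change of 1.2 or with a fold change above 2. In DU145KO+α2 compared to DU145KO the count of 0 became 1 with DESeq2's size factors or voom with limma, 2 without a filter, 3 with library size alone, with the length correction, with the GC content and length correction, or without the replicate 1 samples, 6 by the DESeq2 Wald test, 36 with the replicate block, 31 with the block and length correction and 36 with the block and both corrections. In DU145KO+vector compared to DU145KO the count of 1 became 12 with the replicate block, 5 with the block and length correction, 6 with the block and both corrections, and 0 with either correction alone, by glmTreat, with a fold change above 2 or without the replicate 1 samples. The runs without the replicate 1 samples and with the block and both corrections were chosen after seeing the data. Leaving out each sample gave counts of 1 to 3, 0 to 5 and 0 to 1 in the 3 comparisons and medians of −0.0048 to 0.13, 0.10 to 0.23 and 0.04 to 0.15. The lowest median of the first was that without replicate 1 of DU145KO+α2. With the length correction the third median fell to 0.0027. With the replicate block, ITGA2 had a log2 fold change of −0.23 between the vector line and DU145KO (adjusted p = 0.0402). Over 2184 values of the 28 named members under the alternatives, 1958 kept direction and side of the threshold, 91 gained a call, 14 lost one and 121 changed sign without a call. The cause of these differences was not tested. Depth limits RPL36A most, at 86 to 193 counts per sample.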
